A study of Mus musculus with 4 samples.

Results

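The genes described here encode the machinery that writes and reads methylation of lysine 9 on histone H3 (H3K9) in mouse embryonic stem (ES) cells. They are 9 of the 22367 protein-coding genes of the annotation, and were taken by name, with earlier results of these data known. Of these, 4 encode H3K9 methyltransferases (Setdb1, Suv39h2, Ehmt1 and Ehmt2), Trim28 and Atf7ip encode partners of SETDB1, and 3 encode the heterochromatin protein 1 (HP1) family (Cbx1, Cbx3 and Cbx5). Every enriched region of H3K9me3 or H3K36me3, the trimethylated forms of lysines 9 and 36, that lay in 1 of these genes or within 5 kb of it was collected.

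Chromatin immunoprecipitation and sequencing (ChIP-seq) of both marks was performed in wild-type (WT) ES cells of strain 129S1/SvImJ and in ES cells in which H3f3a had been targeted to encode H3.3 G34R, a form of the histone variant H3.3 with arginine in place of glycine. The G34R line was heterozygous, was derived by Cre excision from a conditional allele and expressed the mutant from the endogenous H3f3a promoter as a single copy. All cells were below passage 20, and the 4 libraries formed 4 groups of 1 library each. The deposited data used here were 1 list of positions per mark, in which regions enriched in WT or in G34R cells were pooled without read values. It follows that no test between WT and G34R cells was possible, that the depth behind a region is unknown, that the 2 cell types cannot be told apart in any result below, and that the labelled cell type could not be checked against marker expression.

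H3K9me3 is the hallmark of heterochromatin, the compact and mostly silent part of the genome. SETDB1 deposits it at retrotransposons and imprinted loci, to which it is brought by TRIM28 and KRAB zinc finger proteins, and ATF7IP stabilises SETDB1 in the nucleus. SUV39H2 acts mainly at pericentric repeats, whereas EHMT1 (GLP) and EHMT2 (G9a) form a dimer that places monomethylation and dimethylation of H3K9 in euchromatin. HP1 proteins bind methylated H3K9 through their chromodomain. H3K36me3 is laid down by SETD2 with elongating RNA polymerase II and marks the bodies of transcribed genes, and the KDM4 demethylases remove methyl groups from both H3K9 and H3K36.

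All 9 genes carried H3K36me3, and 1 of them, Atf7ip, also carried H3K9me3. A region of H3K36me3 was found in 34% of all protein-coding genes and one of H3K9me3 in 40.2%. In total, 73 regions of H3K36me3 touched the genes and covered 107787 bp, or 28.8% of their summed length of 373.863 kb. H3K9me3 was present in 3 regions with 2000 bp, or 0.535% of that length. No base pair of the 9 genes was in both lists (0 bp, also with 5 kb added on both sides). Base pairs in both lists were present in 7.14% of all protein-coding genes and in 21.0% of the 7609 with H3K36me3. The share of genes with H3K36me3 varied with gene length, from 12.5% of genes of up to 5 kb to 47.2% of genes of over 20 and up to 50 kb, and was 28.3% of genes longer than 100 kb. For H3K9me3 the share rose with length, from 17.3% of genes of up to 5 kb to 84.1% of those longer than 100 kb. It was 29.0% to 46.8% in the length classes between 5 and 50 kb. These shares are descriptions, and no difference between the 9 genes and the rest was tested. With 50 kb added on both sides, all 9 genes had an H3K9me3 region in the window, as did 69.7% of protein-coding genes. The lists hold regions in annotated genes and none narrower than 600 bp, so a gene or exon called unmarked may still hold a shorter enriched run, and every distance to the nearest H3K9me3 given below is to a region in a gene. The sizes of the lists themselves follow from the percentile the authors used.

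**Figure D1:**
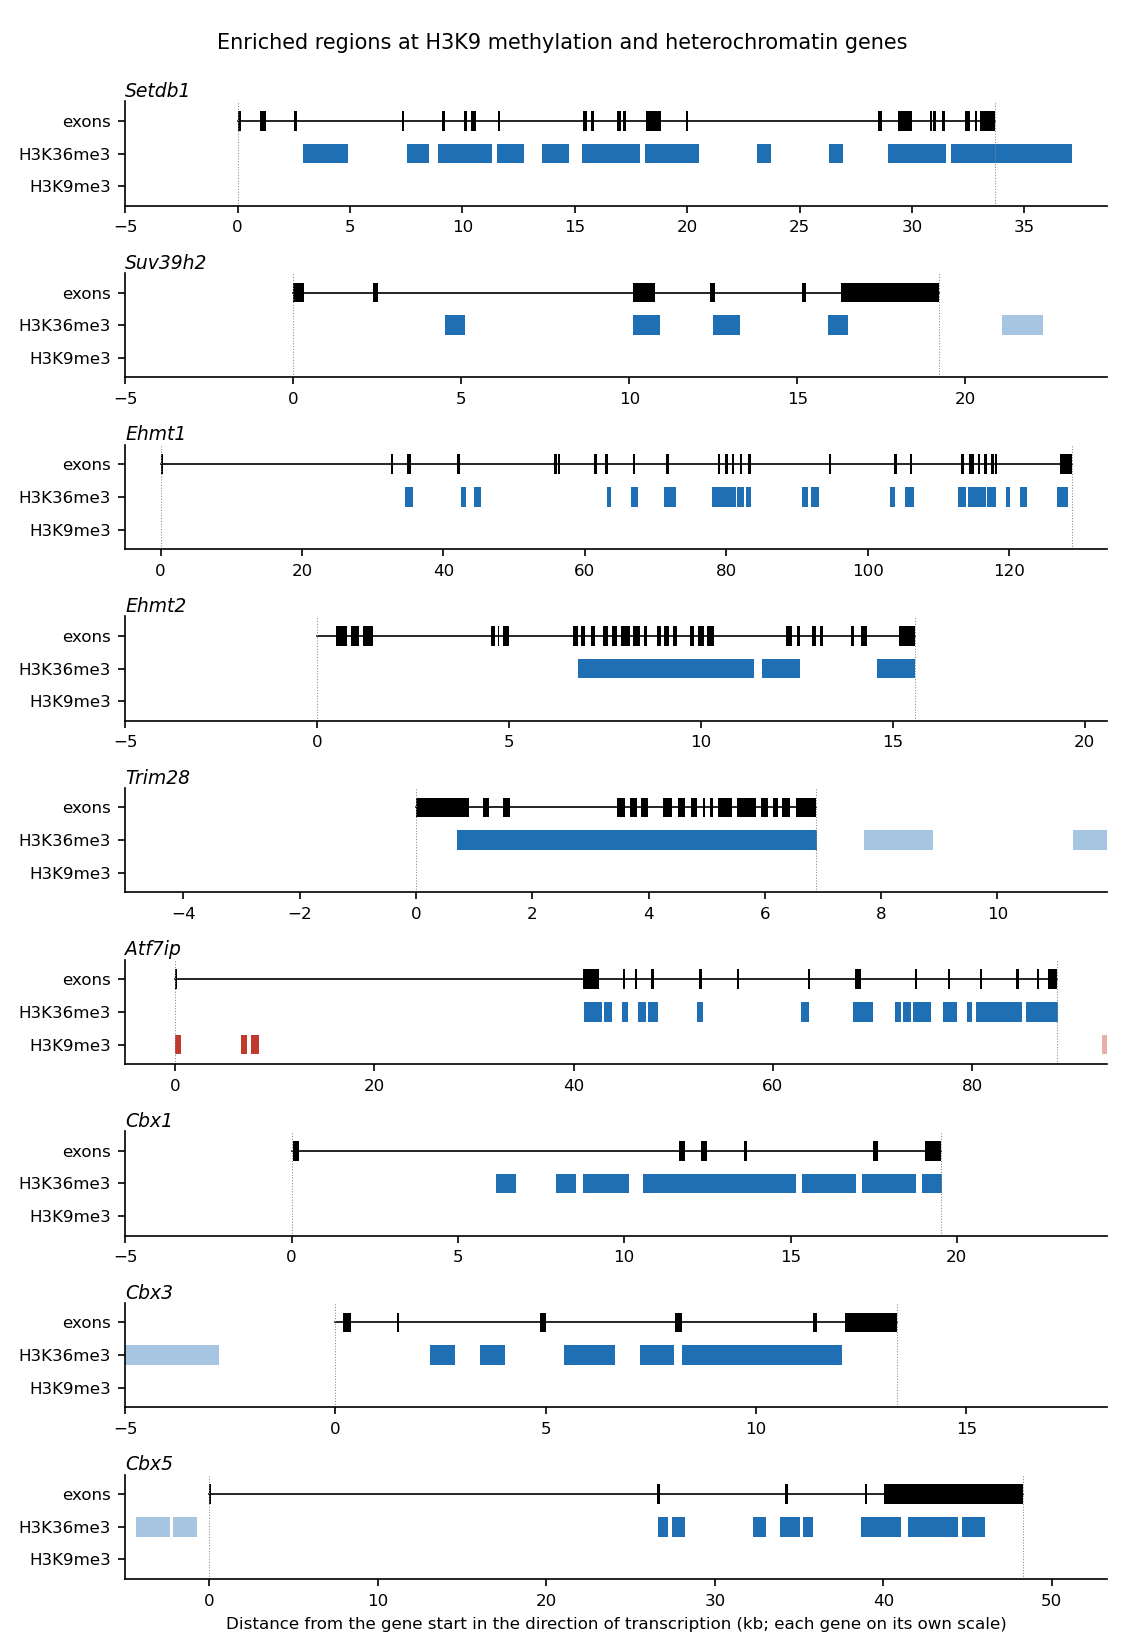
Regions of both lists along each of the 9 genes, drawn in the direction of transcription, with distance from the gene start in kb on the x axis. Black boxes are exons of the longest coding transcript, blue boxes H3K36me3 and red boxes H3K9me3; pale boxes are regions within 5 kb that do not touch the gene, and dotted lines mark the gene start and end. H3K36me3 is present in all 9 genes, and H3K9me3 in Atf7ip, where it lies at the start and ahead of all 15 H3K36me3 regions.

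The sequences shown first bear on the H3K9me3 of Atf7ip, the single gene of the 9 with this mark, and on the absence of H3K36me3 over most Cbx3 exons. They were read from the plus strand of NCBIM37, the assembly equivalent to mm9, and both genes are transcribed from this strand. In the 3 sequences of Atf7ip, all from intron 1, capitals mark each CG dinucleotide, the letters searched (the motif CG reads the same on both strands). The first begins directly after exon 1, at chr6:136467485-136467684, in the H3K9me3 region at the gene start. The second, chr6:136474201-136474400, and the third, chr6:136475301-136475500, are the central 200 bases of the other H3K9me3 regions of the gene.
Atf7ip, start of intron 1: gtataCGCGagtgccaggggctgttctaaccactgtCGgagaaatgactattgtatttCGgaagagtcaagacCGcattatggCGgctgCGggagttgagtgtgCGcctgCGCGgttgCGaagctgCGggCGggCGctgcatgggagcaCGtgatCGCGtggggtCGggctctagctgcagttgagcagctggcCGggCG
Atf7ip, middle H3K9me3 region: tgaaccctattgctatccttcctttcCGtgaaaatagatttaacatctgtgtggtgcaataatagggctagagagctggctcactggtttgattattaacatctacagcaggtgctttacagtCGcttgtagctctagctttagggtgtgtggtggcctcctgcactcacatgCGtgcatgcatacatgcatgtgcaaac
Atf7ip, last H3K9me3 region: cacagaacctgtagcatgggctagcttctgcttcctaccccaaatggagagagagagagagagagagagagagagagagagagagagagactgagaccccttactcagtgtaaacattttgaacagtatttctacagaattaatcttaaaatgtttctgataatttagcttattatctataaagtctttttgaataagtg
The first sequence holds 20 CG dinucleotides in 200 bases, the second 3 and the third 0. The third contains a run of repeated ag in place of them.

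For Cbx3, capitals mark bases that lie in a 50-base word, the length of the sequenced reads, with more than 1 exact copy in the genome on both strands. Exon 3 (chr6:51425230-51425372) and exon 4 (chr6:51428437-51428599) lay in no H3K36me3 region, and exon 5 (chr6:51431723-51431817) lay in one.
Cbx3, exon 3: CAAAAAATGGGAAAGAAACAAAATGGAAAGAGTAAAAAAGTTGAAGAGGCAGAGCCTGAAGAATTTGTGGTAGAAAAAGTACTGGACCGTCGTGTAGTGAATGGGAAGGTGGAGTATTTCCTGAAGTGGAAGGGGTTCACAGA
Cbx3, exon 4: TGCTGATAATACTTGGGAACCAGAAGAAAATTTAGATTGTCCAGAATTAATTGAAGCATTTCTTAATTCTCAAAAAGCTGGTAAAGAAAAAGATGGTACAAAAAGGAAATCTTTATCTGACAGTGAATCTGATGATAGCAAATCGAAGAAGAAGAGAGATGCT
Cbx3, exon 5: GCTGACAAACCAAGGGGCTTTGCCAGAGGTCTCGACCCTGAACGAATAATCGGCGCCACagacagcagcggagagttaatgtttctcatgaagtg
All 143 bases of exon 3 and all 163 bases of exon 4 are in capitals, against 59 of the 95 bases of exon 5.

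Among the methyltransferases, Setdb1 was the most covered by H3K36me3. The gene (ENSMUSG00000015697.8, chr3:95127447-95161124, minus strand, 33.678 kb) carried 11 regions with 18554 bp, or 55.1% of its length. That share was at percentile 75.6 of the protein-coding genes with the mark, whose median was 27.6%. The first region began 2924 bp after the gene start, and 17 of 22 exons were touched, the exceptions being exons 1 to 4 and exon 15. Joined over gaps of up to 2 kb, 6 regions formed a domain of 13.0 kb (chr3:95140601-95153600) over exons 5 to 14. The last region, chr3:95124001-95129400, had 1954 of its 5400 bp in Setdb1 with exons 20 to 22, and ran past the gene end into Lass2 on the opposite strand. Read from the gene start, the regions ahead of it were chr3:95156201-95158200, chr3:95152601-95153600, chr3:95149801-95152200, chr3:95148401-95149600, chr3:95146401-95147600, chr3:95143201-95145800, chr3:95140601-95143000, chr3:95137401-95138000, chr3:95134201-95134800 and chr3:95129601-95132200. The mark covered 84.3% of the coding sequence and 50.0% of the introns of Setdb1. Here and below, covered shares of coding sequence, untranslated region and introns leave out bases within 1 kb of the gene start. H3K9me3 was absent from the gene, and the nearest region was 12.8 kb away (chr3:95111401-95114600, 3200 bp) in Gm10691.

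Suv39h2 was the least covered of the 9 genes. It (ENSMUSG00000026646.10, chr2:3373087-3392303, minus strand, 19.217 kb) had 4 H3K36me3 regions of 600 to 800 bp with 2800 bp in all, or 14.6% of the gene, at percentile 34.3. The median share of marked genes of its length class, over 10 and up to 20 kb, was 38.4%. Its regions, chr2:3387201-3387800, chr2:3381401-3382200, chr2:3379001-3379800 and chr2:3375801-3376400 from start to end of the gene, touched exons 3, 4 and 6. The 660 bp of exon 3, which is coding, were fully covered (by chr2:3381401-3382200), whereas 3.45% of the 2811 bp of untranslated region were covered. Of the 4 regions, 3 also lay in Dclre1c, a DNA repair nuclease gene on the opposite strand, and the 1 nearest the start of Suv39h2 also lay in Gm13184. A further region within 5 kb (chr2:3370001-3371200) was in Dclre1c and not in Suv39h2. The lists have no strand, so these regions cannot be assigned to Suv39h2 rather than to the genes that overlap it. The nearest H3K9me3 was 13.7 kb away in Hspa14.

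The partner genes Ehmt1 and Ehmt2 differed in size and in coverage. Ehmt1 (ENSMUSG00000036893.9, chr2:24646289-24775129, minus strand) spans 128.841 kb and carried the most regions of the 9 genes, 19, with 23600 bp, but they amounted to 18.3% of the gene (percentile 39.2). The median share of marked genes longer than 100 kb was 2.70%. Nothing was marked in the first 34529 bp of Ehmt1, where exons 1 and 2 lie. In all, 19 of 27 exons were touched, while 7 of the 19 regions touched no exon and exons 4 to 8 were untouched. The mark covered 76.6% of the coding sequence and 16.3% of the introns. The first 9 regions of Ehmt1, up to the cluster of exons 11 to 15, were chr2:24739401-24740600, chr2:24732001-24732600, chr2:24729801-24730800, chr2:24711401-24712000, chr2:24707601-24708600, chr2:24702201-24704000, chr2:24693801-24697200, chr2:24692601-24693600 and chr2:24691601-24692400. The other 10 were chr2:24683601-24684400, chr2:24682001-24683200, chr2:24671201-24672000, chr2:24668601-24669800, chr2:24661201-24662400, chr2:24658401-24661000, chr2:24657001-24658200, chr2:24655001-24655600, chr2:24652601-24653600 and chr2:24646801-24648400. The widest region of 3400 bp (chr2:24693801-24697200) held exons 11 to 13, and the longest domain, 9.80 kb at chr2:24652601-24662400, held exons 19 to 25. Ehmt2 (ENSMUSG00000013787.9, chr17:35035414-35050997, plus strand) spans 15.584 kb and had 3 regions with 6597 bp, or 42.3% of the gene (percentile 65.0; median of its length class 38.4%). A single region of 4600 bp, chr17:35042201-35046800, contained exons 8 to 20 and the last 11 of the 138 bp of exon 7, and the first region began 6787 bp from the start. The other 2 regions were chr17:35047001-35048000 and chr17:35050001-35051000. Exons 1 to 6 and 23 to 26 of Ehmt2 were not touched. Of its coding sequence 64.6% was covered and of its introns 38.3%. The nearest H3K9me3 was 27.5 kb from Ehmt1, in Cacna1b, and 42.2 kb from Ehmt2, in Hspa1b. H3K9me3 was present in 84.1% of protein-coding genes longer than 100 kb, and Ehmt1, the longest of the 9 genes, lacked it.

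Trim28, the corepressor that links KRAB zinc finger proteins to SETDB1, was marked almost from end to end. The gene (ENSMUSG00000005566.7, chr7:13609501-13616384, plus strand) is the shortest of the 9, at 6.884 kb, and a single H3K36me3 region of 6200 bp, chr7:13610201-13616400, covered 89.8% of it. That share was at percentile 98.6 of marked genes, and the median of marked genes of over 5 and up to 10 kb was 44.8%. All 17 exons of Trim28 were touched. The region began 700 bp after the start, which made Trim28 1 of 2 genes described here with H3K36me3 within 1 kb of the start, against 2.62% of all protein-coding genes. The other was Cbx5, through a region upstream of its start that belongs to its neighbour. Beyond the end of Trim28, a region of 1200 bp (chr7:13617201-13618400) lay in Chmp2a and another of 800 bp (chr7:13620801-13621600) in Ube2m. The nearest H3K9me3 was 12.6 kb away in Mzf1, the shortest such distance to a listed region among the 8 genes without the mark.

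Atf7ip had both marks, at opposite ends. The gene (ENSMUSG00000030213.6, chr6:136467372-136555898, plus strand, 88.527 kb) carried 15 H3K36me3 regions with 21298 bp, or 24.1% (percentile 46.0). Marked genes of over 50 and up to 100 kb had a median of 8.98%. The first of these regions started 41029 bp into Atf7ip, at exon 2, the large first coding exon, of which 1560 of 1676 bp were covered. From there 12 of 15 exons were touched (not 1, 4 and 7), 91.6% of the coding sequence and 20.7% of the introns were covered, and the last 7 regions formed a domain of 16.4 kb (chr6:136539601-136556000) up to the gene end. The first 8 regions were chr6:136508401-136510200, chr6:136510401-136511200, chr6:136512201-136512800, chr6:136513801-136514600, chr6:136514801-136515800, chr6:136519801-136520400, chr6:136530201-136531000 and chr6:136535401-136537400. Those of the domain were chr6:136539601-136540200, chr6:136540401-136541200, chr6:136541401-136543200, chr6:136544401-136545800, chr6:136546801-136547400, chr6:136547801-136552400 and chr6:136552801-136556000.

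H3K9me3 in Atf7ip was confined to the first 8428 bp, where 3 regions with 2000 bp made up 2.26% of the gene (percentile 23.4 of genes with the mark, whose median was 5.84%). The first, chr6:136467401-136468000, began 29 bp after the gene start and covered 84 of the 113 bp of exon 1 and the beginning of intron 1. It made Atf7ip 1 of 9 genes with H3K9me3 within 1 kb of the start, a position found in 19.1% of protein-coding genes. The other 2, chr6:136474001-136474600 and chr6:136475001-136475800, were in intron 1, separated from each other by 400 bp. Between the last H3K9me3 region and the first H3K36me3 region of Atf7ip, 32.6 kb had neither mark, nearly all of it intron 1. A further H3K9me3 region, chr6:136560401-136561000, was within 5 kb of the gene end but lay in Plbd1, and a second, shorter model annotated as Atf7ip (ENSMUSG00000053935.6) was touched by no region. All 3 regions were close to the shortest width in the list, 600 bp, and narrower than 1 kb. Whether they were enriched in WT cells, in G34R cells or in both cannot be told apart.

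The H3K9me3 regions of Atf7ip were unlike each other in sequence. The region at the start was 53.2% G+C and held 48 CG dinucleotides, 1.14 times the number that its base composition gives. Of the H3K9me3 regions of 600 bp, 3.84% had 48 or more CG, and the median was 7. In the second region 40.2% of bases were G or C and 6 CG were present (ratio 0.248), which is near that median. The third region, 800 bp long, had 35.0% G+C and 0 CG. Of the H3K9me3 regions of 800 bp, 99.5% held at least 1 CG. In the third region 98.8% of 50-base words had a single copy in the genome, so that it was mostly outside exact repeats, and its most copied word had 136 copies. Within 500 bp of the start, Atf7ip had the lowest G+C of the 9 genes (49.8%) and the highest CG ratio (1.12), while Ehmt2 had the highest G+C (69.9%). Protein-coding genes with H3K9me3 within 1 kb of the start had a median G+C there of 61.1%, and genes without it 53.2%. Base composition is known to influence ChIP-seq coverage, and its part in the H3K9me3 at Atf7ip was not tested.

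The HP1 genes were all marked with H3K36me3 and were without H3K9me3. Cbx1 (HP1β, ENSMUSG00000018666.7, chr11:96650441-96669954, plus strand, 19.514 kb) had 7 regions with 10954 bp, 56.1% of the gene (percentile 76.5). They followed each other with gaps below 2 kb from 6160 bp after the start to the gene end, a domain of 13.4 kb. Exons 2 to 6 of Cbx1 and all 593 bp of its coding sequence were covered, against 49.1% of its introns. The 7 regions were located at chr11:96656601-96657200, chr11:96658401-96659000, chr11:96659201-96660600, chr11:96661001-96665600, chr11:96665801-96667400, chr11:96667601-96669200 and chr11:96669401-96670000, and the first of them also touched the pseudogene Gm11517. The nearest H3K9me3 was 33.4 kb away in Skap1.

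Cbx5 (HP1α, ENSMUSG00000009575.8, chr15:103021975-103070247, minus strand, 48.273 kb) carried 8 regions with 10800 bp, 22.4% of the gene (percentile 43.9). The first began 26647 bp from the start, at exon 2, and parts 1 to 5 of 10 equal parts of the gene held none of the marked base pairs. Exons 2 to 5 were touched, 93.2% of the coding sequence and 13.0% of the introns were covered, and 3 regions lay over exon 5, which holds most of the 8349 bp of untranslated region of Cbx5 (63.2% covered). From the start of Cbx5 onwards the regions were chr15:103043001-103043600, chr15:103042001-103042800, chr15:103037201-103038000, chr15:103035201-103036400, chr15:103034401-103035000, chr15:103029201-103031600, chr15:103025801-103028800 and chr15:103024201-103025600. Upstream of the start, regions of 1400 bp (chr15:103071001-103072400) and 2000 bp (chr15:103072601-103074600) were in Hnrnpa1, which encodes an RNA-binding protein. The nearest H3K9me3 was 45.4 kb from Cbx5, the longest such distance to a listed region among the 9 genes, in D930007P13Rik.

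Cbx3 (HP1γ, ENSMUSG00000029836.9, chr6:51420359-51433703, plus strand, 13.345 kb) had 5 regions with 7000 bp, 52.5% of the gene (percentile 73.6), and was the exception in where the mark lay. The coding sequence was covered to 17.3%, the introns to 68.9% and the 1130 bp of untranslated region to 0%. A single exon of 6, exon 5, was touched. Exons 1 and 2 lay ahead of the first region, chr6:51422601-51423200, and exons 3 and 4 in gaps between regions. Exon 4 lay in a gap of 200 bp, the width of 1 bin, between chr6:51427601-51428400 and chr6:51428601-51432400. Exon 3 lay in the gap between chr6:51423801-51424400 and chr6:51425801-51427000, and the last region ended 1303 bp before the gene end, ahead of exon 6. Joined over gaps of up to 2 kb, the 5 regions formed 1 domain of 9.80 kb (chr6:51422601-51432400). It spanned exons 3 to 5 and covered 73.4% of the gene, so the place of exons 3 and 4 outside the mark depends on such gaps. The region upstream of Cbx3, chr6:51411601-51417600 with 6000 bp, was in Hnrnpa2b1, a second RNA-binding protein gene. The nearest H3K9me3 was 37.0 kb away in Nfe2l3.

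Of the 5 unmarked exons of Cbx3, 3 were made largely of copied sequence. Of the 50-base words that start in exon 3, 65.7% had more than 1 exact copy in the genome, as did 70.6% in exon 4 and 89.6% in exon 6, against 10.5% in exon 5. More than 5 exact copies were found for 30.8% of words in exon 3, 18.4% in exon 4 and 22.4% in exon 6, with up to 9, 6 and 12 copies. The authors left out reads with more than 5 alignments. Inexact copies were not counted here, so the share of reads lost to that limit is unknown. Over the coding sequence of Cbx3, 62.5% of words had more than 1 copy, while every word of the coding sequences of Cbx1 and Cbx5 had 1. Within the H3K36me3 regions of Cbx3 the share of copied words was 0.143%, and in its unmarked part 24.8%. Cut into bins of 200 bp, Cbx3 had 11 bins in which under 80% of words were unique, and 0 of them were marked, whereas 35 of the other 55 bins (63.6%) were. Exons 1 and 2, with 6.67% and 7.55% copied words, were also unmarked. Copied sequence and missing enrichment thus moved together in Cbx3, and the part of the one in the other was not tested.

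**Figure D2:**
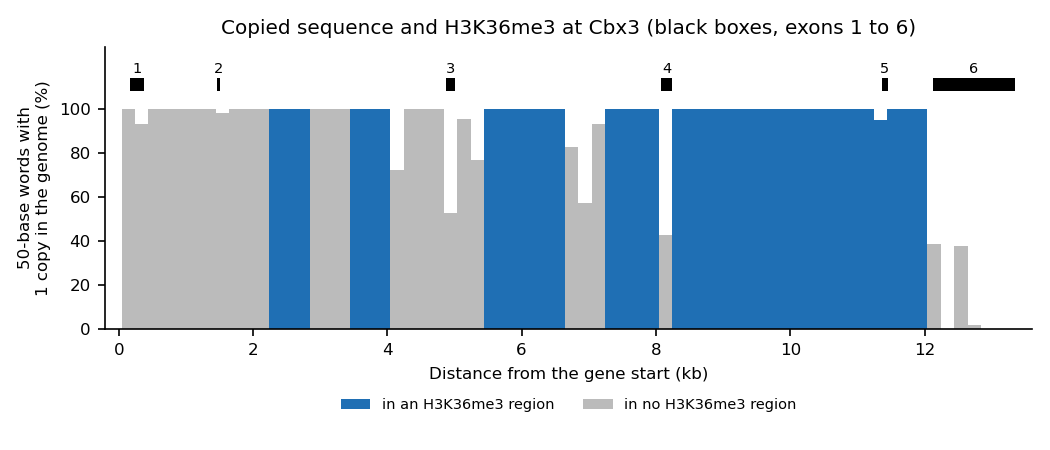
Share of 50-base words with a single copy in the genome (y axis, %) in consecutive bins of 200 bp along Cbx3, against distance from the gene start in kb. Blue bins lie in an H3K36me3 region and grey bins do not; black boxes are exons 1 to 6. The 11 bins with under 80% of single-copy words, around exons 3, 4 and 6 and in 2 introns, are all grey.

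The other genes had values in the same direction. In the other 8 genes together, 8 of 140 copied bins (5.71%) and 492 of 1653 bins with at least 80% unique words (29.8%) were in an H3K36me3 region. Setdb1 contributed 29 of the copied bins, of which 4 were marked. All words of its unmarked exon 3, 81.4% of those in its unmarked exon 2 and 50.7% of those in its unmarked exon 1 had a second copy in the genome. Unlike in Cbx3, 0% of the words in these exons had more than 5 exact copies, and none had more than 2. The unmarked exons 4 and 15 of Setdb1 were of unique sequence. Trim28 had no copied bin. Bins of 1 gene are neighbours in sequence and in chromatin and are not replicates, so no test was made.

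H3K36me3 was sparse at the starts of the genes and denser in their later parts. Divided into 10 equal parts, the genes were covered on average to 1.46% in the first part, 24.2% in the fourth, 50.1% in the fifth and 61.9% in the sixth, the highest. From there the mean did not go up steadily: it was 53.7% in the eighth part and 61.6% in the ninth, with medians of 37.3% and 54.7%. In the first part 1 of 9 genes, Setdb1, had any mark, and in the sixth and the ninth all 9 had it. In the 6877 marked protein-coding genes of at least 5 kb the mean was 4.16% in the first part and 45.2% in the ninth. Over those genes too the mean was higher in the last 5 parts (37.4% to 45.2%) than in the first 5 (4.16% to 34.3%). More than 50% of the marked base pairs were in the last 5 parts in 8 of the 9 genes, a count not made over all marked genes. Setdb1 was the exception, at 49.8%, and its profile fell to 22.3% in the eighth part and returned to 94.1% in the tenth. In the tenth part, Cbx3 had 2.40% and Trim28 100%. Of the first exons 1 of 9 was touched (Trim28), and of the last exons 8 of 9 (not Cbx3). These exon counts were likewise not made over all marked genes, so they do not set the 9 genes apart.

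**Figure D3:**
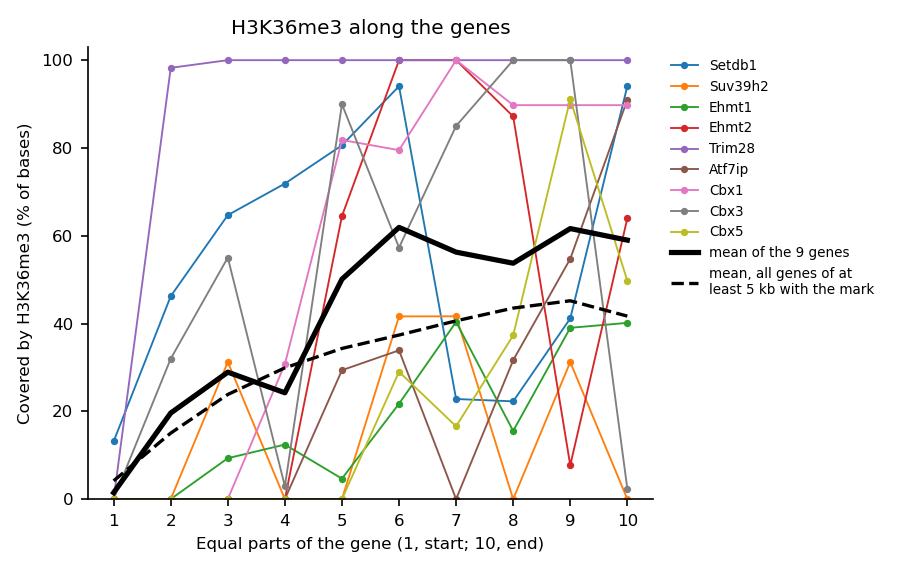
Coverage by H3K36me3 (y axis, % of bases) in 10 equal parts of each gene from start to end (x axis). Thin coloured lines are the 9 genes, the thick black line is their mean, and the dashed line is the mean of the 6877 protein-coding genes of at least 5 kb with the mark. The mean of the 9 genes runs from 1.46% in the first part to 59.0% in the last, and the lines of single genes scatter widely around it.

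Beyond 1 kb from the gene start, coding sequence was covered more than introns in 7 of 9 genes. The first 1 kb, left out of both shares, was covered to 3.34% over the 9 genes. Over all 9, 80.5% of the coding sequence and 24.2% of the intron sequence were in a region, with medians over the genes of 84.3% and 38.3%. The exceptions were Trim28, with 100% in both beyond the first 1 kb, and Cbx3. Exon 1 of Trim28 lies within that 1 kb and was covered over 210 of its 910 bp. Among the 6867 marked genes of at least 5 kb with both parts, 83.3% had the larger share in coding sequence, and the medians were 61.4% and 22.1%. In all, 95 of the 131 exons of the 9 transcripts were touched, and 42 of the 73 regions touched coding sequence. Both counts were not made over all marked genes or listed regions, so they do not set the 9 genes apart. Regions in the genes had a median width of 1000 bp, as in the whole list, and 18 were of 600 bp. In 6 of the 9 genes no 50-base word of the coding sequence had a second copy (not in Setdb1, with 9.23% copied words, Ehmt2, with 0.0777%, and Cbx3), and the part of copied sequence in the difference between coding sequence and introns was not tested.

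**Figure D4:**
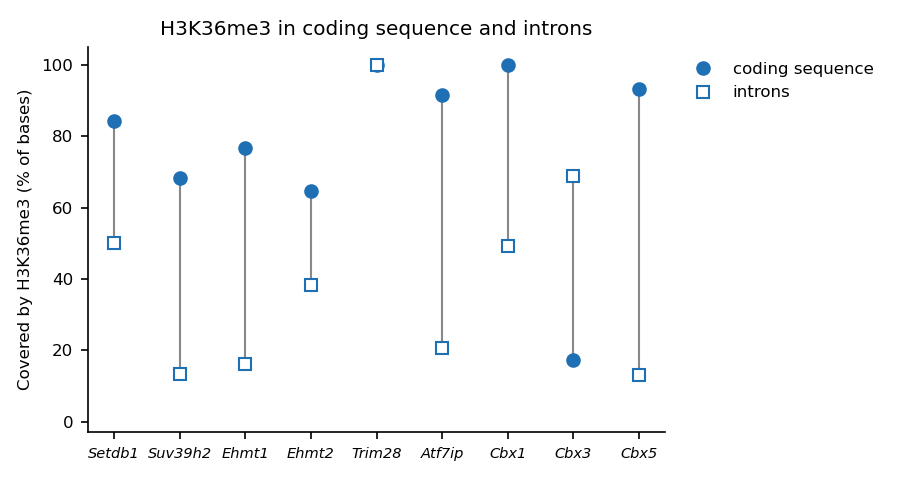
Share of the coding sequence (filled circles) and of the introns (open squares) covered by H3K36me3 in each gene (y axis, % of bases), joined by a line. Bases within 1 kb of the gene start are left out of both. Coding sequence is above introns in 7 genes, both are at 100% in Trim28, and Cbx3 has 17.3% of coding sequence and 68.9% of introns.

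Other genes of the pathway, 42 in number and listed by role, were examined in the same way. H3K36me3 was found in 34 of them (background 34%), H3K9me3 in 15 (background 40.2%), both in 10 (background 12.1%) and neither in 3 (background 37.9%), namely Setdb2, Atrx and Kdm4d. The median H3K36me3 share of the 34 was 31.7%, against 27.6% over all marked genes. The largest shares were in Uhrf1, a reader of H3K9me3 and hemimethylated DNA (90.8%), Chd4, the remodeller of the NuRD complex (86.7%), and Chaf1a, a subunit of the chromatin assembly factor CAF-1 (84.6%). Of the 10 genes for HP1-associated proteins and readers of H3K9me3, 9 had H3K36me3 and 0 had H3K9me3. All 4 genes of the HUSH complex and Morc2a, a group that acts with SETDB1, had H3K36me3, and 1 of them, Pphln1, also had H3K9me3. Other groups held more H3K9me3: 6 of 11 H3K9 demethylase genes, 3 of 4 G9a and GLP partners and 3 of 6 TRIM28 paralogues and NuRD partners. It was also found in 1 of 4 Polycomb chromobox genes, in the ATF7IP paralogue and in 0 of 2 other H3K9 methyltransferase genes. These groups differed in gene length, whose part was not tested. The 3 G9a and GLP partners with H3K9me3 spanned 159 to 214 kb, and the 6 demethylase genes 62.4 to 160 kb. Of genes without it, Wiz spanned 35.4 kb, but Atrx 132 kb and Kdm4c 163 kb. H3K9me3 was found in 62.4% of all protein-coding genes of over 50 and up to 100 kb. In longer genes the share was 84.1%.

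Of the other pathway genes, Cbx8, Trim24 and Cdyl2 had the largest shares of H3K9me3. Cbx8, whose chromodomain protein belongs to Polycomb complexes, was covered to 100% and had no H3K36me3. The other Polycomb chromobox genes examined, Cbx2, Cbx6 and Cbx7, were covered by H3K36me3 to 40.9%, 30.3% and 24.9% with no H3K9me3. Likewise, the HP1 genes Cbx1, Cbx3 and Cbx5 were covered by H3K36me3 to 56.1%, 52.5% and 22.4% with no H3K9me3. Trim24, a paralogue of Trim28, was covered by H3K9me3 to 24.1% and by H3K36me3 to 33.1%, and had 14800 bp in both lists. Atf7ip2, the paralogue of Atf7ip, had H3K9me3 over 12.7% of its length and H3K36me3 over 1.19%, with 600 bp in both. Chd3, a second remodeller of the NuRD complex, had H3K9me3 over 15.8% of its length, with a region within 1 kb of the start, and no H3K36me3. Base pairs in both lists were present in 7 of the 42 genes (background 7.14%, or 21.0% of protein-coding genes with H3K36me3). Besides Trim24 and Atf7ip2 these were Cdyl2 (12600 bp), which encodes a chromodomain protein and was covered by H3K9me3 to 18.3%, Pphln1 (3000 bp), Chd4 (1800 bp) and the H3K9 demethylase genes Kdm3b and Kdm4b (600 bp each). H3K9me3 lay within 1 kb of the start in 8 of the 42 genes (background 19.1%, so near the share of all genes) and H3K36me3 in 0 (background 2.62%).

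**Figure D5:**
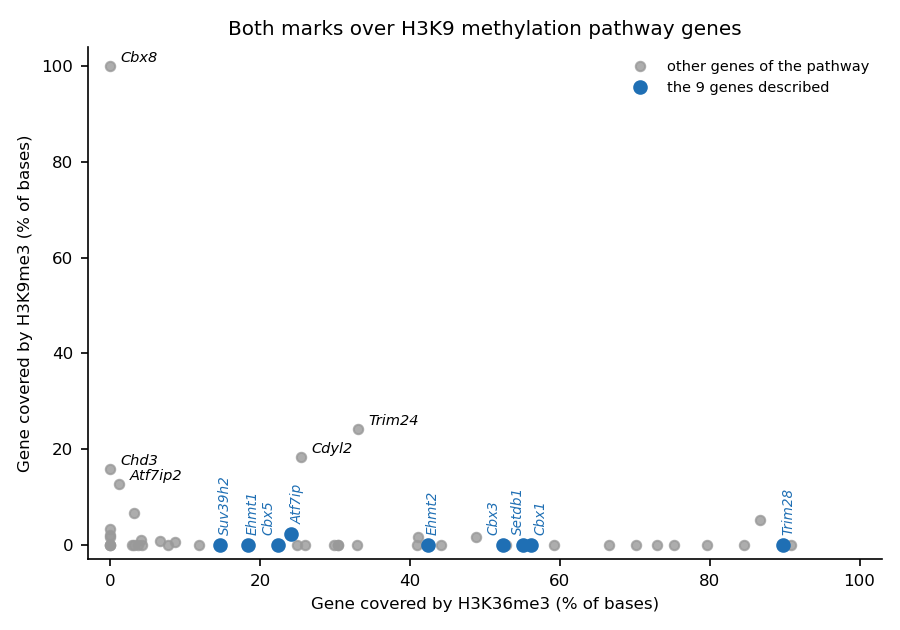
Share of each gene covered by H3K36me3 (x axis, %) and by H3K9me3 (y axis, %) for the 9 genes described (blue) and the 42 other genes of the pathway (grey), with names for the blue genes and for grey genes above 10% H3K9me3. Of the blue points, Atf7ip at 24.1% and 2.26% is the single one above 0 on the y axis, while Cbx8 is at the top left.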

How the data were processed

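H3K9me3 and H3K36me3 were measured by ChIP-seq in WT and G34R ES cells, with 1 library for each of 4 groups, so no replicate error, p-value or interval can be given. According to the methods of the study, the authors aligned reads to mm9 with Bowtie 1.0.0, leaving out reads with more than 5 alignments, removed duplicates, counted reads in 200 bp bins in genes, matched the distributions of WT and G34R cells, kept bins above percentile 95 in either and merged them with BedTools 2.20.1. The deposited lists hold chromosome, start and end of 31593 regions of H3K36me3 (600 to 60200 bp wide) and 32502 of H3K9me3 (600 to 48800 bp), with no counts, and their depth is unknown. The methods also state a limit on region size whose sense could not be matched to these widths. A bin below the threshold, outside genes or in a run narrower than 600 bp is not listed, and how often bins of repeated sequence were lost was not tested.

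Regions were intersected with GENCODE genes on NCBIM37 (equivalent to mm9) in Python 3.11.15 with numpy 2.4.6, and figures were drawn with matplotlib 3.10.9. No region ended past its chromosome. A gene carried a mark if a region shared at least 1 bp with it, parts were taken in the order within 1 kb of the start, coding sequence, untranslated region, other exon, intron, and exons from the longest coding transcript. Percentiles and medians over marked genes refer to protein-coding genes with a region of that mark. Exact copies of every 50-base word of the genes were counted on both strands of the genome. The interval functions were tested on simulated data. All 9 genes were named, with the position of every region that touched them. Of 42 other pathway genes (1 more of the list is not reported here), the 3 with the largest share of each mark and those with base pairs in both lists were named, and further ones were chosen after their values were seen. A search for the genes most like the one with the most shared base pairs was not made, since that number was 0 in all 9. The genes and lists were chosen with earlier results of these data known. The alternatives tried were joining neighbours within 2 kb, regions of at least 1 kb, an overlap of at least 600 bp, the span of the longest coding transcript, the starts of all coding transcripts, a start window of 2 kb and a flank of 5 kb. A flank of 50 kb, and regions of at least 1 kb for the counts at starts and in both lists, were chosen after seeing the data.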

Additional observations from a re-analysis of the deposited data

How the results depend on the processing

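With regions of at least 1 kb, no gene (0 of 9) kept H3K9me3 in the gene or within 1 kb of the start, because all 3 regions of Atf7ip were narrower, and 8 of 9 kept H3K36me3, Suv39h2 being lost. The shares of all protein-coding genes at this minimum width were not computed. Median widths in the whole lists were 800 bp for H3K9me3 and 1000 bp for H3K36me3. With 50 kb added on both sides of each gene, an alternative chosen after seeing the data, 9 of 9 genes had an H3K9me3 region in the wider window, where 69.7% of all protein-coding genes had one. Joining neighbours within 2 kb raised the median H3K36me3 share from 42.3% to 56.4%. Of 27 H3K36me3 shares of single genes under 3 alternatives, 2 changed by more than 1.5 times, both in Suv39h2 (from 14.6% to 22.9% with neighbours joined and to 0% with regions of at least 1 kb), as did 1 of 27 H3K9me3 shares (Atf7ip, to 0%). Smaller changes occurred in other genes. The H3K36me3 share of Cbx3 went from 52.5% to 73.4% with neighbours joined and to 37.5% with regions of at least 1 kb. That of Trim28 stayed at 89.8%. The count of genes with base pairs in both lists was 0 under each alternative run for it. Without read values, weakly enriched bins cannot be told from unmarked ones. No paired analysis was possible because each group held 1 library.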
